A study of Caenorhabditis elegans with 16 samples.

Results

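The N-glycosylation genes described here are 10 genes of *C. elegans*, chosen by name for their place in the pathway from the 46589 genes of the deposited table. Tunicamycin (TM) blocks the first step of the pathway they form. In wild-type N2 worms treated with TM as embryos or as L4 larvae, most of the 10 transcripts sat slightly above their controls. Their median log2 fold changes were 0.25 after embryo treatment and 0.27 after L4 treatment. Protein-coding genes of like length and level had medians of 0.21 and 0.16. None of the 10 changed by more than 1 on the log2 scale. The largest fold change of the 10 at both stages was in *ostb-1*, which rose in every alternative run and encodes a subunit of the enzyme that attaches the finished glycan to proteins. *algn-7*, whose product is the enzyme that TM inhibits, did not pass the test at either stage, and at L4 lay so near the limit that the call turned on the processing.

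RNA-seq was performed on whole worms described as Day 1 adults. In the EMBRYO TM group, embryos recovered by bleaching were kept in S Medium with 1.25 μg/ml TM for 24 h, and the EMBRYO CNT group is its control. In the L4 TM group, worms grown on plates up to the L4 larval stage had the same dose for 24 h, and the L4 CNT group is its control. All 16 libraries came from the N2 wild type kept at 20 °C, with 4 libraries per group, each from worms of a single plate, and worms went back to plates after treatment. Expression is given as FPKM, the fragments on a gene per kilobase of its length, scaled to library size, so levels of different genes can be set side by side.

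N-linked glycans are built on dolichol, a long lipid of the ER membrane. ALGN-7, the product of *algn-7*, places a phosphorylated N-acetylglucosamine on dolichol phosphate. Other assembly enzymes add mannoses and glucoses one at a time, and oligosaccharyltransferase moves the finished glycan onto asparagines of proteins entering the ER. Glucoses and mannoses are then trimmed while lectin chaperones hold the folding protein. The roles given for single genes are those of their yeast and mammalian counterparts. Without the first step unglycosylated proteins fold poorly in the ER, which is why TM is used to cause ER stress.

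Of the 10 genes, 6 encode enzymes of glycan assembly. *algn-7* (Y60A3A.14) lies on chromosome V at 19927881 to 19934319, minus strand. *algn-1* (T26A5.4; III, 6460118 to 6462222, plus strand) adds the first mannose, *algn-2* (F09E5.2; II, 5375265 to 5377120, plus strand) the next ones, and *algn-11* (B0361.8; III, 7287847 to 7290562, minus strand) the last mannoses added on the cytosolic side. *algn-5* (H43I07.3; V, 4195616 to 4199390, plus strand) makes the dolichol-bound glucose donor, and *algn-10* (T24D1.4; I, 9960370 to 9961973, minus strand) adds the terminal glucose.

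The other 4 genes encode subunits of oligosaccharyltransferase. *stt-3* (T12A2.2; III, 6248317 to 6251607, plus strand) is the catalytic subunit. *ostb-1* (T09A5.11; II, 7864074 to 7866259, plus strand), *ribo-1* (T22D1.4; IV, 6910683 to 6912863, plus strand) and *dad-1* (F57B10.10; I, 6553479 to 6554292, minus strand) are partners of it, named OST48, ribophorin I and DAD1 in mammals. All 10 are protein-coding genes, with the positions as deposited. No source used here names the genome build of the table.

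Lengths in the table ran from 480 bases for *dad-1* to 2967 bases for *stt-3*, with the other 8 genes between 1245 and 1961 bases. The count of reads behind a single value was lowest for *algn-7*, at 227 reads, and highest for *ribo-1*, at 22730 reads. The 3′ part of *algn-1* overlaps 534 bases of T26A5.8 on the other strand, and the sources do not say whether reads were counted by strand, so reads in that stretch cannot be told apart. T26A5.8 did not pass the test in either TM comparison, with log2 fold changes of -0.12 in EMBRYO TM and -0.14 in L4 TM. It was lower in EMBRYO CNT than in L4 CNT, as *algn-1* was (log2 fold change of T26A5.8 -1.35, limma adjusted p = 7.71e-07). The part of its reads in the *algn-1* values was not tested.

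Some libraries stood farther from their group than the rest, and they touch several results. Over 7398 protein-coding genes with a mean of at least 10 FPKM, the median absolute deviation from the other libraries of the group was 0.293 on the log2 scale in EMBRYO TM replicate 4, 0.250 in L4 TM replicate 4 and 0.207 in L4 CNT replicate 2, against 0.0705 to 0.196 in the other 13. Reads on genes, recovered from the FPKM, ranged from 12361026 in L4 CNT replicate 2 to 47193068 in L4 TM replicate 4. Yet L4 TM replicate 4 had the fewest detected genes, 15377, against 17539 to 21833 in the other libraries. Whether its reads were recovered on the right unit was not tested. A single read made up the whole value of 0.702% of detected genes in L4 TM replicate 4, and of 8.97% to 10.9% of them in the other libraries.

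Oligosaccharyltransferase subunits were the more abundant class. Over all 16 libraries their means ranged from 96.7 FPKM (*stt-3*) to 253.6 FPKM (*dad-1*), above 94.7% to 98.2% of the 20528 protein-coding genes. Means of the assembly enzymes ranged from 19.5 FPKM (*algn-7*) to 55.8 FPKM (*algn-11*), above 72.6% to 89.6% of them. *algn-7* was thus the lowest of the 10 by this mean. In 8 of the 10 genes the group means ran in the order L4 TM, L4 CNT, EMBRYO TM, EMBRYO CNT from high to low. *stt-3* and *algn-2* had other orders, described with their values below.

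**Figure D1:**
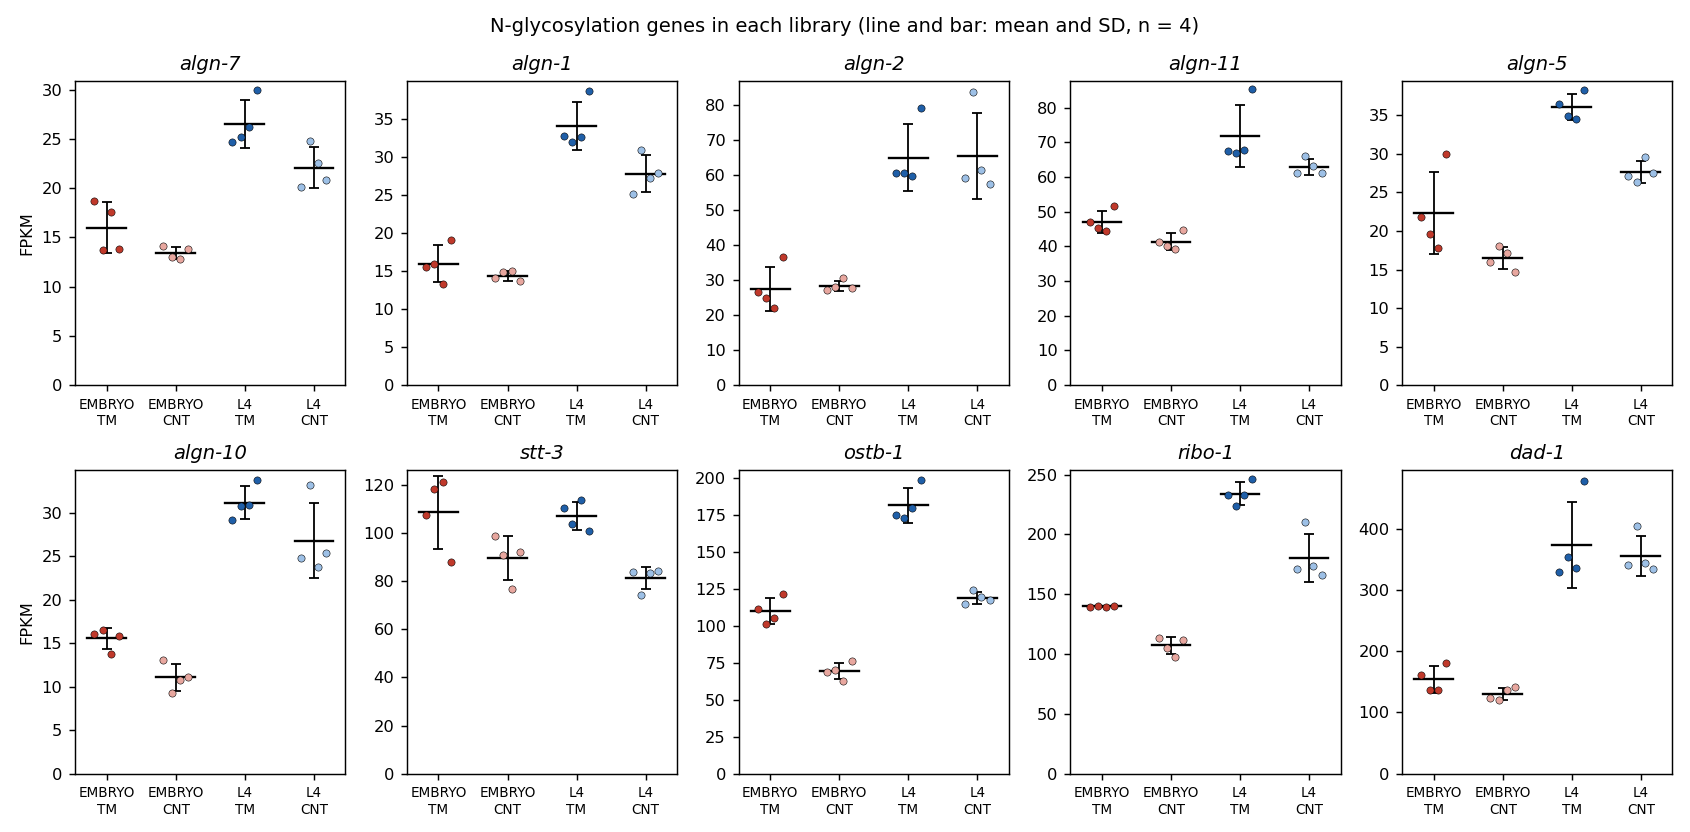
Level of each N-glycosylation gene in FPKM (y axis, from 0) in the 4 libraries of each group; points are libraries, the line is the group mean and the bar its SD (n = 4). The 4 EMBRYO TM libraries of *ostb-1* (101.4 to 121.7 FPKM) lie above the 4 EMBRYO CNT libraries (62.98 to 76.2 FPKM), while those of *algn-7* overlap.

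In worms treated as embryos, limma at an adjusted p under 0.05 put 4 of the 10 genes above EMBRYO CNT (*algn-5*, *algn-10*, *ostb-1* and *ribo-1*), where 25.7% of all 14930 genes tested were higher by that rule. None was lower by adjusted p (27% of all genes), 0 at an unadjusted p under 0.05, and 0 by voom on reads recovered from the FPKM. No member passed the fold change limit of 1 on the log2 scale, which 5.06% of genes passed upwards and 7.61% downwards. Log2 fold changes on FPKM + 1 ran from -0.06 (*algn-2*) to 0.65 (*ostb-1*) with a median of 0.25, against a median of -0.03 over all genes tested.

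The share depended on gene length and level. Of the 2295 protein-coding genes of over 1200 and up to 2000 bases with a mean of at least 10 FPKM, a class that holds 8 of the 10 members, 43.5% were higher in EMBRYO TM by adjusted p, and their median log2 fold change was 0.21. Members' counts in this comparison were therefore close to those of other genes of like length and level.

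*algn-7* measured 18.8, 13.7, 17.6 and 13.8 FPKM in EMBRYO TM, against 14.1, 13.01, 12.8 and 13.8 FPKM in EMBRYO CNT. Replicates 1 and 3 of EMBRYO TM were above every control and the other 2 were within the control range. The log2 fold change was 0.22 (95% interval -0.03 to 0.47, limma adjusted p = 0.117). It passed the test without EMBRYO TM replicate 4 (0.28, limma adjusted p = 0.0431).

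*ostb-1* had 111.4, 101.4, 105.8 and 121.7 FPKM in EMBRYO TM, against 69.0, 70.6, 62.98 and 76.2 FPKM in EMBRYO CNT. Every treated library was above every control. Its log2 fold change was 0.65 (SE 0.09, limma adjusted p = 0.000312), and it kept the call in all 18 alternatives run, between 0.58 and 0.70.

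*ribo-1* was almost the same in the 4 EMBRYO TM libraries, with 139.7, 140.1, 139.0 and 140.4 FPKM, against 113.7, 105.2, 97.9 and 112.1 FPKM in EMBRYO CNT. The groups did not overlap, and the fold change on the log2 scale was 0.38 (SE 0.07, limma adjusted p = 0.00206).

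*algn-10* had 16.1, 16.6, 13.8 and 15.8 FPKM in EMBRYO TM, against 13.1, 9.26, 10.7 and 11.2 FPKM in EMBRYO CNT, again without overlap. A log2 fold change of 0.46 resulted (SE 0.11, limma adjusted p = 0.00609). These 3 genes (*ostb-1*, *ribo-1* and *algn-10*) were the members whose treated libraries all lay above the controls, which held for 23.9% of all genes tested. No member had all treated libraries below the controls (24.6% of all genes).

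*algn-5* was less even, with 21.8, 19.7, 17.8 and 30.0 FPKM in EMBRYO TM, against 15.9, 18.1, 17.1 and 14.7 FPKM in EMBRYO CNT. Replicate 3 of EMBRYO TM fell inside the control range and replicate 4 was well above the rest. Its log2 fold change of 0.40 had a limma adjusted p of 0.0494, and the call was lost in 10 of 18 alternatives, without each single library other than EMBRYO TM replicates 3 and 4 among them.

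The catalytic subunit *stt-3* had 107.4, 118.2, 121.5 and 87.9 FPKM in EMBRYO TM, against 98.8, 91.0, 76.7 and 92.0 FPKM in EMBRYO CNT. Replicate 4 of EMBRYO TM was below 3 of the 4 controls, and the other 3 treated libraries were above all of them. The log2 fold change was 0.27 (95% interval -0.00 to 0.55, limma adjusted p = 0.0895). Without EMBRYO TM replicate 4 it was 0.37 (limma adjusted p = 0.00916). It also passed with all libraries in one model over the 16 (0.27, limma adjusted p = 0.0324). In replicate 4, deviations from the group ran with gene length, from a median of 0.36 in genes of up to 600 bases to -0.43 in genes over 3000 bases on the log2 scale. The part of this in the member values was not tested.

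The other 4 genes did not pass the test in EMBRYO TM. *algn-11* had a log2 fold change of 0.18 (interval 0.01 to 0.36, adjusted p = 0.0725 by limma), *dad-1* of 0.23 (-0.02 to 0.48) and *algn-1* of 0.13 (-0.10 to 0.37). After median-ratio rescaling *algn-11* (limma adjusted p = 0.027) and *dad-1* (limma adjusted p = 0.0497) passed too, for a count of 6 of 10. *algn-2* had 22.2 to 36.6 FPKM in EMBRYO TM, against 27.1 to 30.5 FPKM in EMBRYO CNT, with 3 treated libraries below all controls and replicate 4 above them. Its log2 fold change was -0.06 (-0.37 to 0.25).

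In worms treated at L4, limma at an adjusted p under 0.05 put 5 of the 10 genes above L4 CNT (*algn-1*, *algn-5*, *stt-3*, *ostb-1* and *ribo-1*), where 20.3% of all 11964 genes tested were higher. None was lower by adjusted p (15.8% of all genes), with 0 at an unadjusted p under 0.05 and 0 by voom, and none passed the fold change limit, which 0.585% of genes passed upwards and 3.2% downwards. The median log2 fold change of the 10 was 0.27, with a range from 0.00 (*algn-2*) to 0.60 (*ostb-1*), and that of all genes 0.05. Among protein-coding genes of over 1200 and up to 2000 bases and at least 10 FPKM, 30.7% were higher and the median was 0.16.

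Without the 2 libraries of this comparison that stood farthest from their groups, L4 TM replicate 4 and L4 CNT replicate 2, the count was 8 of 10, with *algn-7*, *algn-10* and *algn-11* added. This alternative was chosen after the data were seen. Over all genes it raised the count of higher genes to 4336, against 2428 with all 8 libraries. Leaving out L4 CNT replicate 2 alone gave 7 of 10.

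*algn-7* measured 24.7, 25.2, 26.2 and 30.0 FPKM in L4 TM, against 20.1, 24.9, 22.6 and 20.8 FPKM in L4 CNT. Replicate 2 was the only control that reached the lowest treated library. The log2 fold change was 0.25 (95% interval 0.05 to 0.46), just short of the limit with a limma adjusted p of 0.0512. It passed in 4 of 19 alternatives, with adjusted p from 0.00297 to 0.175 over all of them. All 8 libraries were kept in 2 of these, a filter at a mean of 5 FPKM (limma adjusted p = 0.0457) and protein-coding genes alone (limma adjusted p = 0.0494), and the other 2 left out L4 CNT replicate 2.

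*ostb-1* again had the largest fold change of the members, with 175.4, 173.1, 179.9 and 199.1 FPKM in L4 TM, against 114.9, 124.7, 119.9 and 117.4 FPKM in L4 CNT. The groups were far from overlapping. The log2 fold change was 0.60 (SE 0.06, limma adjusted p = 0.000206), between 0.56 and 0.63 in the alternatives.

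*stt-3* had 110.3, 103.8, 113.6 and 100.9 FPKM in L4 TM, against 83.7, 74.4, 83.3 and 84.3 FPKM in L4 CNT. All treated libraries were above all controls, and the log2 fold change was 0.39 (SE 0.06, limma adjusted p = 0.00224). *ribo-1* had 232.8, 223.9, 233.4 and 246.6 FPKM in L4 TM, against 170.7, 210.7, 173.6 and 166.2 FPKM in L4 CNT, also without overlap and with a log2 fold change of 0.38 (SE 0.08, limma adjusted p = 0.00799). Replicate 2 was the high control for *ribo-1* and the low control for *stt-3*.

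*algn-5* had 36.4, 35.0, 34.5 and 38.3 FPKM in L4 TM, against 27.2, 26.3, 29.6 and 27.6 FPKM in L4 CNT. Here the groups were tight and separate, unlike the EMBRYO libraries, with a log2 fold change of 0.37 (SE 0.06, limma adjusted p = 0.00209). The call held in all 19 alternatives, as it did for *stt-3*, *ostb-1* and *ribo-1*.

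*algn-1* had 32.7, 32.0, 32.6 and 38.7 FPKM in L4 TM, against 25.1, 30.9, 27.3 and 27.9 FPKM in L4 CNT. The groups did not overlap, and the log2 fold change was 0.28 (SE 0.09, limma adjusted p = 0.0315). The call was lost in 8 of 19 alternatives, including without L4 CNT replicate 1, 3 or 4 and without L4 TM replicate 1 or 3.

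Besides *algn-7*, the members that did not pass in L4 TM were *algn-11*, *algn-10*, *dad-1* and *algn-2*. *algn-11* had 66.9 to 85.3 FPKM in L4 TM, against 61.0 to 66.1 FPKM in L4 CNT, without overlap but with a limma adjusted p of 0.132 (log2 fold change 0.18). *algn-10* had a log2 fold change of 0.22 (95% interval -0.02 to 0.46) and *dad-1* of 0.06 (-0.23 to 0.35). *algn-2* was level in the test (0.00, -0.32 to 0.31). The 6 members whose L4 TM libraries all lay above the controls (*algn-1*, *algn-5*, *algn-11*, *stt-3*, *ostb-1* and *ribo-1*) compare with 20.8% of all genes, and none lay wholly below (16% of all genes).

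Markers of the germline moved with these values. At both stages transcripts of germ cells, a tissue known to divide and to load oocytes, were more abundant after TM. The summed level of 14 germline markers, led by *cgh-1*, was 1692 to 2857 FPKM in EMBRYO TM, against 1095 to 1621 FPKM in EMBRYO CNT, and 4074 to 4240 FPKM in L4 TM, against 3029 to 3138 FPKM in L4 CNT. By limma's adjusted p 12 of the 14 were higher in EMBRYO TM and 10 in L4 TM, with median log2 fold changes of 0.81 and 0.40, and none was lower. Of 14 oocyte markers, 5 were higher in EMBRYO TM and 12 in L4 TM. None of these markers was at 0 in every library of any group. Their part in the member values was not tested, and in whole worms more cells of a type and more RNA per cell cannot be told apart.

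Markers of other tissues moved as well. The 6 vitellogenins, yolk genes of the adult intestine, summed to 6496 to 22386 FPKM in EMBRYO TM, against 3679 to 5613 FPKM in EMBRYO CNT, and to 13948 to 17790 FPKM in L4 TM, against 19651 to 23421 FPKM in L4 CNT. All 27 sperm markers were higher in EMBRYO TM by adjusted p, with sums of 2272 to 2494 FPKM, against 700 to 803 FPKM in EMBRYO CNT, while their sums were 593 to 778 FPKM in L4 TM and 571 to 677 FPKM in L4 CNT. Neuron markers were lower at both stages, 9 of 11 in EMBRYO TM and 6 of 11 in L4 TM by adjusted p. Of the muscle markers 6 of 9 were lower in EMBRYO TM and 2 of 7 tested in L4 TM. Of 9 intestine markers, 6 were higher and 2 lower in EMBRYO TM, while 1 was higher and 4 lower in L4 TM. Of 10 hypodermal markers, 6 were higher and 1 lower in EMBRYO TM, while of 9 tested in L4 TM 0 were higher and 3 lower.

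**Figure D2:**
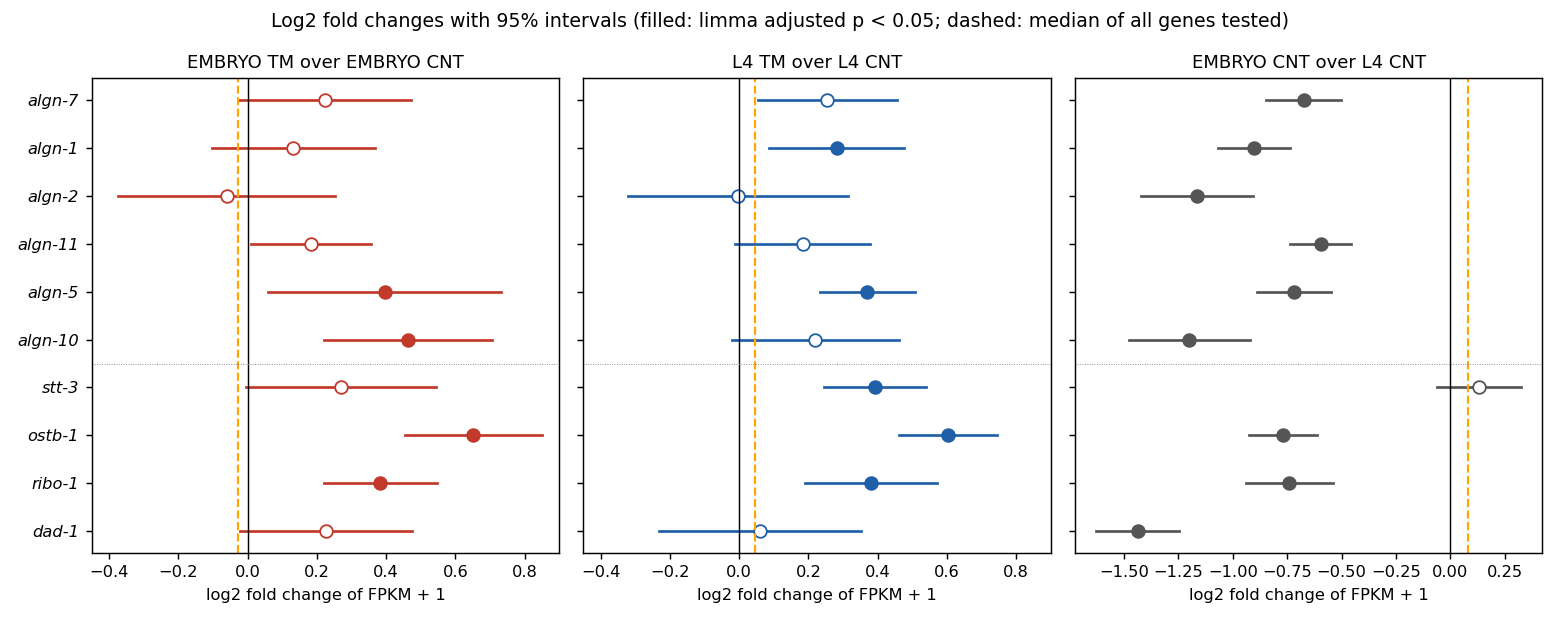
Log2 fold change of FPKM + 1 (x axis) for each N-glycosylation gene (rows) in EMBRYO TM over EMBRYO CNT, L4 TM over L4 CNT and EMBRYO CNT over L4 CNT, with 95% intervals; filled points passed a limma adjusted p of 0.05 and the dashed line is the median of all genes tested. *ostb-1* lies farthest to the right in both TM panels (0.65 and 0.60), and 9 of 10 genes lie below 0 in the control panel. The control panel shares its libraries with both TM panels.

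The TM effect was next compared between the 2 stages, as the difference of the log2 fold changes (EMBRYO minus L4) in one model over all 16 libraries. No member passed limma's adjusted p, at which 14.8% of the 13856 genes tested had a positive and 14.4% a negative difference, and 6.5% and 4.22% one beyond 1 on the log2 scale. At an unadjusted p under 0.05 limma gave 0 members, and voom gave 0 by adjusted p. For *ostb-1* the difference was 0.05 (95% interval -0.18 to 0.28), for *ribo-1* 0.00 (-0.23 to 0.24) and for *algn-7* -0.03 (-0.34 to 0.28). The extremes were *algn-10* at 0.24 (-0.09 to 0.57) and *algn-1* at -0.15 (-0.44 to 0.15). These intervals leave room for stage differences of up to 0.57 on the log2 scale. Time since treatment goes with stage in this design, so effects of the 2 cannot be told apart.

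The larger contrast for these genes was between the 2 sets of controls. In EMBRYO CNT, 9 of the 10 genes were lower than in L4 CNT by limma's adjusted p, where 40.1% of the 14221 genes tested were lower and 43.2% higher. *dad-1* (-1.44), *algn-10* (-1.20) and *algn-2* (-1.17) were also beyond the fold change limit (14.5% of all genes downwards). No member was beyond it upwards, where 26.1% of all genes were. The groups did not overlap for all 9, as for 37.8% of all genes downwards and 40.6% upwards. The member median was -0.75, against 0.08 over all genes tested. Among protein-coding genes of over 1200 and up to 2000 bases with at least 10 FPKM, 69.4% were lower and the median was -0.64.

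The scale of this comparison depends on the normalisation. The median of all genes was -0.07 after median-ratio rescaling and 0.36 after rescaling to TPM. Genes past both limits numbered 3713 higher and 2060 lower as deposited, 3267 and 2744 after median-ratio rescaling and 4965 and 1342 as TPM. The 9 members stayed lower in every alternative run.

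*dad-1* had 124.0, 121.0, 135.9 and 141.7 FPKM in EMBRYO CNT, against 341.1, 404.8, 343.5 and 334.0 FPKM in L4 CNT. No library came near the other group, and on the log2 scale the change was -1.44 (SE 0.08, limma adjusted p = 2e-07).

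*algn-2* measured 27.1, 28.05, 30.5 and 27.7 FPKM in EMBRYO CNT, against 59.3, 83.8, 61.5 and 57.6 FPKM in L4 CNT. *algn-10* averaged 11.1 ± 1.59 FPKM in EMBRYO CNT and 26.8 ± 4.33 FPKM in L4 CNT (SD, n = 4 each). For both, the control libraries of the EMBRYO group were at less than the lowest L4 control, and L4 CNT replicate 2 was the highest of its group.

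*algn-7* averaged 13.4 ± 0.618 FPKM in EMBRYO CNT and 22.1 ± 2.11 FPKM in L4 CNT (SD, n = 4 each), a log2 fold change of -0.67 (SE 0.08, limma adjusted p = 1.79e-05). *ostb-1* averaged 69.7 ± 5.44 FPKM in EMBRYO CNT and 119.2 ± 4.17 FPKM in L4 CNT, and *ribo-1* 107.2 ± 7.22 FPKM in EMBRYO CNT and 180.3 ± 20.5 FPKM in L4 CNT. The remaining assembly genes, *algn-1*, *algn-5* and *algn-11*, had log2 fold changes between -0.90 and -0.60.

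*stt-3* was the exception. It averaged 89.6 ± 9.27 FPKM in EMBRYO CNT and 81.4 ± 4.69 FPKM in L4 CNT (SD, n = 4 each), with overlapping groups and a log2 fold change of 0.13 (95% interval -0.06 to 0.33, limma adjusted p = 0.173). Across the 4 groups its means ran EMBRYO TM, L4 TM, EMBRYO CNT, L4 CNT, and both TM groups overlapped each other, as both controls did. After rescaling to TPM it was higher in EMBRYO CNT (0.32, limma adjusted p = 0.00362), and after median-ratio rescaling the difference was -0.02. Without EMBRYO CNT replicate 3 it was 0.20 (limma adjusted p = 0.0252). *stt-3* was also the longest of the 10 genes.

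In this contrast too the marker lists moved. All 14 germline markers were lower in EMBRYO CNT than in L4 CNT (median log2 fold change -0.998), as were 13 of 14 oocyte markers and all 6 vitellogenins. Of the muscle markers 8 of 9 were higher in EMBRYO CNT, summing to 2829 to 3184 FPKM there, against 751 to 982 FPKM in L4 CNT. Of the neuron markers 9 of 11 were higher. Of 9 hypodermal markers tested, 6 were higher in EMBRYO CNT by adjusted p and 0 lower. Of 9 intestine markers, 3 were higher and 5 lower. The hypodermal list was led by *col-19*, a collagen of the adult cuticle, in all 4 groups. The authors' headings for group means call the EMBRYO groups L1 and the L4 groups D1, while the design text of the series gives Day 1 adults for all. How much of the member differences belongs to stage, tissue makeup or culture between the 2 sets cannot be told apart.

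**Figure D3:**
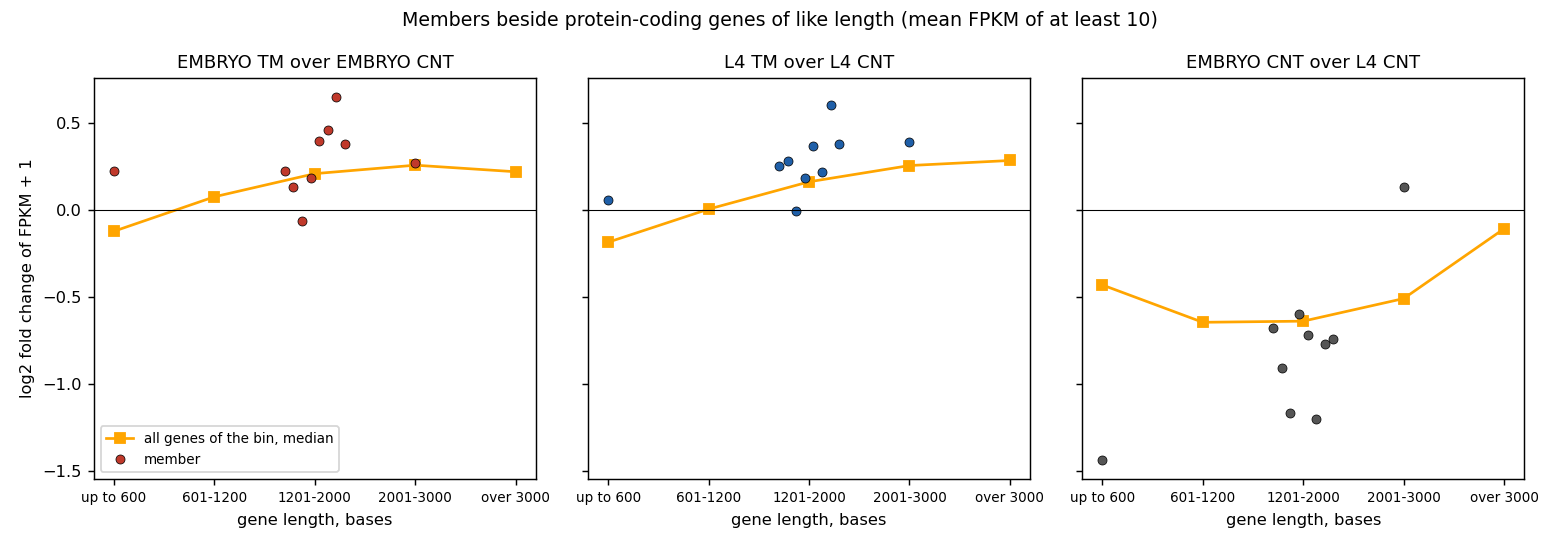
Log2 fold change of FPKM + 1 (y axis) of the 10 genes (circles) beside the median of all protein-coding genes with a mean of at least 10 FPKM (squares), by gene length in bases (x axis), for EMBRYO TM over EMBRYO CNT, L4 TM over L4 CNT and EMBRYO CNT over L4 CNT. Bin medians in the shortest and longest bins are -0.12 and 0.22 in EMBRYO TM and -0.18 and 0.29 in L4 TM, and *dad-1* and *stt-3* lie farthest from their bins in the control panel.

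Gene length moved with the fold changes of all genes. In EMBRYO TM the median log2 fold change was -0.12 in genes of up to 600 bases, where *dad-1* belongs (0.23), and 0.26 in genes of over 2000 and up to 3000 bases, where *stt-3* belongs (0.27). In L4 TM the same bins had -0.18 (*dad-1* 0.06) and 0.26 (*stt-3* 0.39). In EMBRYO CNT over L4 CNT they had -0.43 (*dad-1* -1.44) and -0.51 (*stt-3* 0.13). The part of length in the member values was not tested.

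Ratios of 2 genes within a library do not depend on the library scale, so the subunits of oligosaccharyltransferase were also set against *ribo-1*. These ratios were chosen after the values were seen, and 9 tests were made, by a two-sided exact permutation test over libraries. With 4 libraries against 4 the smallest p is 0.0286. It was reached by 4 ratios, and none passed 0.05 after adjustment over the 9 tests. With so few libraries no single ratio could pass that adjustment by itself, however far apart its groups, so missing the adjusted limit says little.

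*ostb-1* stood higher relative to *ribo-1* in every TM library, though short of the adjusted limit. Its ratio was 0.787 ± 0.061 in EMBRYO TM and 0.650 ± 0.0329 in EMBRYO CNT (SD, n = 4 each; exact p = 0.0286, adjusted 0.0643). It was 0.776 ± 0.0224 in L4 TM and 0.665 ± 0.0509 in L4 CNT (SD, n = 4 each; exact p = 0.0286, adjusted 0.0643). In each case all 4 treated libraries lay above all 4 controls, at the smallest p possible. Between the controls, at 0.650 in EMBRYO CNT and 0.665 in L4 CNT, the groups overlapped (exact p = 0.629).

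The other subunits separated the stages rather than the treatments, again short of the adjusted limit. *stt-3* over *ribo-1* was 0.835 ± 0.0402 in EMBRYO CNT and 0.458 ± 0.0704 in L4 CNT (SD, n = 4 each; exact p = 0.0286, adjusted 0.0643). With TM it was 0.778 in EMBRYO TM, against 0.835 in EMBRYO CNT, and 0.458 in L4 TM and in L4 CNT alike, with overlapping groups. *dad-1* over *ribo-1* was 1.22 ± 0.132 in EMBRYO CNT and 1.98 ± 0.0389 in L4 CNT (SD, n = 4 each; exact p = 0.0286, adjusted 0.0643). In L4 TM it was 1.41, 1.58, 1.44 and 1.94, against 1.92 to 2.01 in L4 CNT (exact p = 0.0571, adjusted 0.103), so replicate 4 alone reached the controls. A ratio of genes of unlike length still holds differences that go with length. *dad-1* has 480 bases and *ribo-1* 1961, and their length bins had median log2 fold changes of -0.18 and 0.16 in L4 TM. The part of length in the ratios was not tested.

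**Figure D4:**
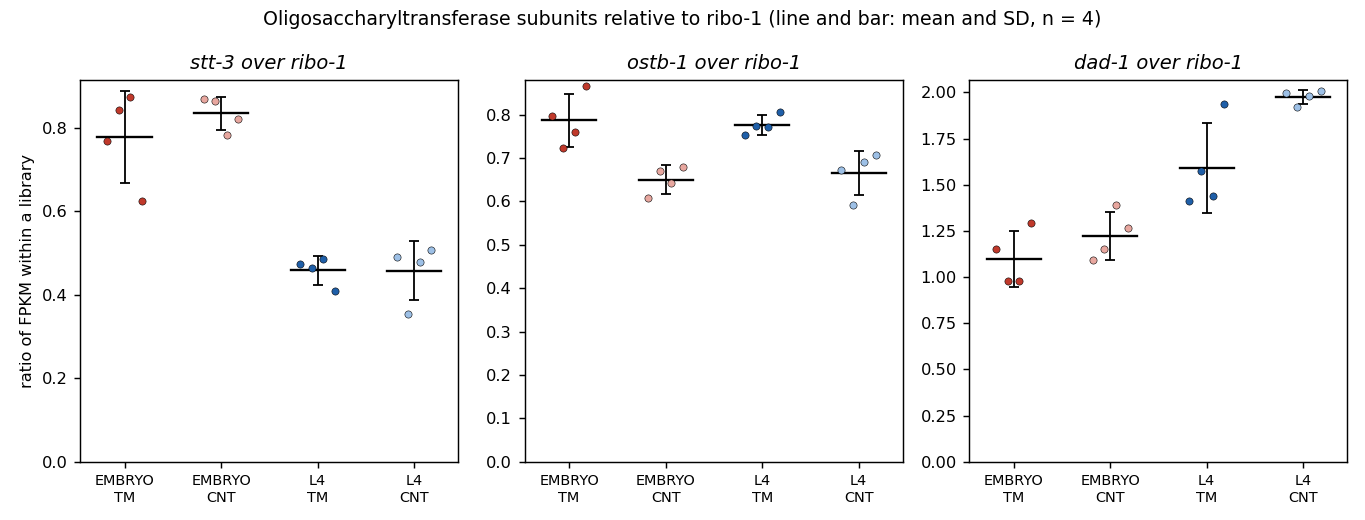
FPKM of *stt-3*, *ostb-1* and *dad-1* divided by that of *ribo-1* in the same library (y axis, from 0) for the 4 groups; points are libraries, the line is the mean and the bar the SD (n = 4). The *ostb-1* ratio lies at 0.724 to 0.867 in EMBRYO TM, above 0.607 to 0.680 in EMBRYO CNT, and at 0.754 to 0.807 in L4 TM, above 0.592 to 0.706 in L4 CNT.

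Beyond the 10, the pathway was followed with 58 further genes in 5 lists, of which 44 were found in the table by symbol. In EMBRYO TM 19 of 44 tested rose and 2 fell by limma's adjusted p, with a median log2 fold change of 0.20. In L4 TM 12 of 43 were higher and 1 lower, with a median of 0.17. In EMBRYO CNT over L4 CNT 5 of 43 were higher and 33 lower, with a median of -0.55. Of all genes tested, 25.7% rose and 27% fell by adjusted p after embryo treatment, and 20.3% and 15.8% after L4 treatment. Between the controls the shares were 43.2% and 40.1%. In the protein-coding class of over 1200 and up to 2000 bases and at least 10 FPKM, 43.5% rose after embryo treatment. That class had 30.7% higher after L4 treatment and 69.4% lower between the controls. Whether any list differs from other genes of like length and level was not tested.

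Among the 11 other genes of glycan assembly and dolichol supply, 3 rose and 1 fell in EMBRYO TM, and 2 rose in L4 TM by limma. *rft-1*, whose yeast counterpart is needed for the half-built glycan on its way across the ER membrane, averaged 5.15 ± 1.03 FPKM in EMBRYO TM, against 2.30 ± 0.246 FPKM in EMBRYO CNT (SD, n = 4 each). Its log2 fold change of 0.88 had a limma adjusted p of 0.000684, and in L4 TM it was 0.11 (adjusted p = 0.625). At this low level the pseudocount of 1 understates the fold. *dpm-3*, a subunit of the enzyme that makes dolichol-bound mannose, was lower in EMBRYO TM, with 35.0 ± 8.54 FPKM against 59.4 ± 5.96 FPKM in EMBRYO CNT (SD, n = 4 each; log2 fold change -0.77, limma adjusted p = 0.0044). *algn-14*, partner of the enzyme that adds the second sugar, was higher in L4 TM (log2 fold change 0.42, limma adjusted p = 0.00814).

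Of 4 sugar donor genes, 2 rose at each stage by limma's adjusted p. *gfat-2* encodes the first enzyme of the route to the N-acetylglucosamine donor that ALGN-7 uses. It averaged 404.0 ± 8.57 FPKM in L4 TM, against 294.0 ± 5.83 FPKM in L4 CNT (SD, n = 4 each, log2 fold change 0.46, limma adjusted p = 0.000331). It was also higher in EMBRYO TM (0.53, limma adjusted p = 0.00622). Only 3 of 6 other subunit genes were found, of which 2 were higher in EMBRYO TM, and log2 fold changes in L4 TM ran from -0.16 to 0.21.

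Of the genes listed under trimming and the lectin cycle, 7 of 14 rose and 1 fell in EMBRYO TM, and 5 of 13 rose and 1 fell in L4 TM. *aagr-1* and *aagr-2* are among the 7, and *aagr-1* is the one that fell in L4 TM. *mans-2*, a class I alpha-mannosidase, averaged 22.8 ± 2.75 FPKM in EMBRYO TM, against 12.0 ± 0.659 FPKM in EMBRYO CNT (SD, n = 4 each; log2 fold change 0.87, limma adjusted p = 9.04e-05). It averaged 32.0 ± 2.87 FPKM in L4 TM, against 20.8 ± 1.03 FPKM in L4 CNT (SD, n = 4 each; 0.59, limma adjusted p = 0.000546). *uggt-1*, the glucosyltransferase that senses unfolded glycoproteins, was higher in L4 TM (0.46, limma adjusted p = 0.00198). *aagr-4* was higher in EMBRYO TM (0.73, limma adjusted p = 9.22e-05) and in L4 TM (0.40, limma adjusted p = 0.00355). *aagr-3* was higher in L4 TM (0.41, limma adjusted p = 0.00064), with 0.18 in EMBRYO TM (limma adjusted p = 0.0895). Both resemble the catalytic subunit of glucosidase II.

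*aagr-1* and *aagr-2*, listed here by family, resemble the acid alpha-glucosidase of lysosomes rather than an ER enzyme. *aagr-2* had the largest fold change of the pathway lists in EMBRYO TM, averaging 74.2 ± 7.92 FPKM in EMBRYO TM, against 28.2 ± 2.06 FPKM in EMBRYO CNT (SD, n = 4 each; log2 fold change 1.36, limma adjusted p = 6.63e-06), and did not pass in L4 TM (-0.05, adjusted p = 0.447). *aagr-1* was higher in EMBRYO TM (0.86, limma adjusted p = 9.44e-05) and lower in L4 TM (-0.55, limma adjusted p = 0.000244). Golgi processing genes were higher in 5 of 12 cases in EMBRYO TM and 3 of 12 in L4 TM.

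**Figure D5:**
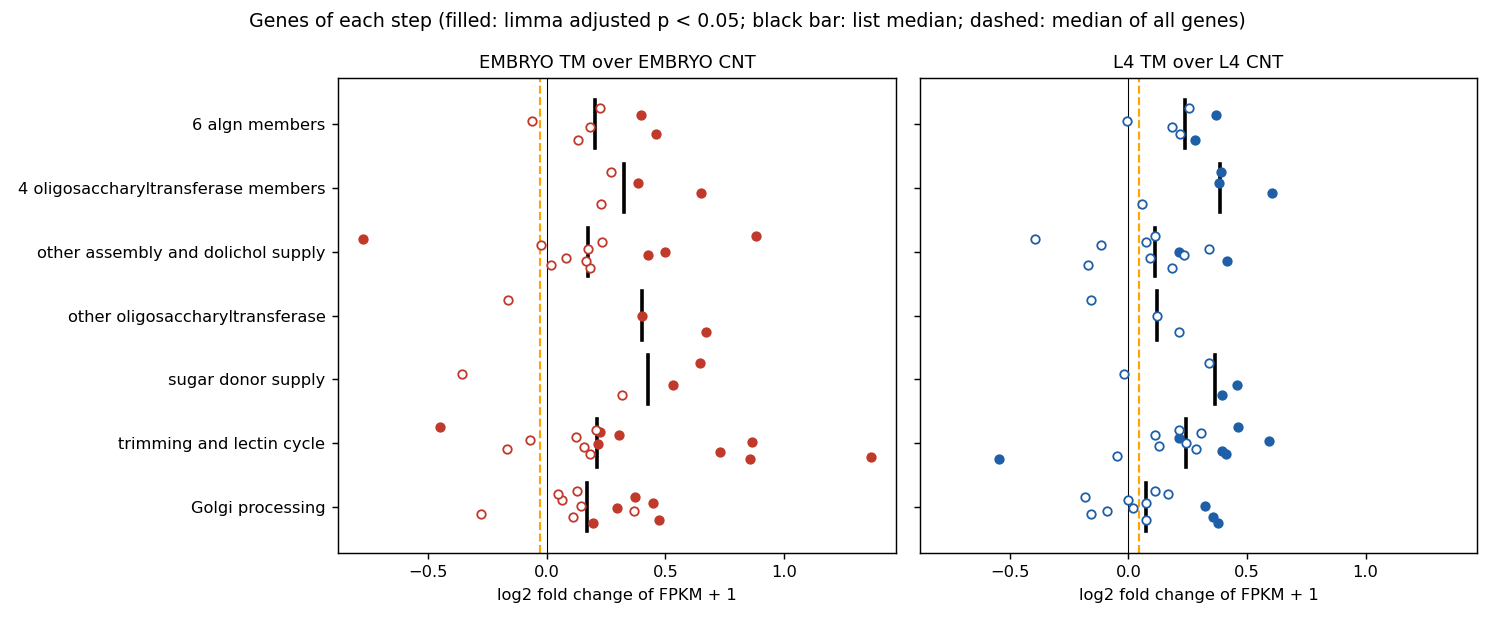
Log2 fold change of FPKM + 1 (x axis) for the genes of each step of N-glycosylation (rows) in EMBRYO TM over EMBRYO CNT and L4 TM over L4 CNT; each point is a gene, filled where limma's adjusted p was under 0.05, the black bar is the list median and the dashed line the median of all genes tested. List medians lie between 0.17 and 0.42 in EMBRYO TM and between 0.07 and 0.39 in L4 TM, with *aagr-2* (1.36) farthest to the right in EMBRYO TM.

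Over the 16 libraries the genes most like *algn-7* in log2(FPKM + 1) were Y56A3A.16, *cyk-3*, *tbp-1*, *ltah-1.1* and *gad-1*, with Pearson correlations of 0.973 to 0.978 among 13009 other protein-coding genes with a mean of at least 1 FPKM. Each had its highest group mean in L4 TM and its lowest in EMBRYO CNT, as *algn-7* did. Y56A3A.16 averaged 26.98 FPKM in EMBRYO TM, against 22.04 FPKM in EMBRYO CNT, and 45.2 FPKM in L4 TM, against 35.5 FPKM in L4 CNT. Among the other members the correlation with *algn-7* was highest for *ribo-1* (0.951, place 211 of 13009) and lowest for *stt-3* (0.116, place 6256). These points share libraries, normalisation and the stage difference, so the values describe the pattern only.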

How the data were processed

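Bulk poly(A) RNA-seq of 16 libraries was used, 4 per group as labelled. The authors deposited FPKM values for 46589 genes with gene lengths and group means, and the submitters' processing notes name HISAT2 2.0.5, featureCounts 1.5.0-p3, StringTie 1.3.3b, edgeR 3.22.5 and DESeq2, without a build. Columns of this FPKM do not sum to a common total, and the library size used for it was not tested. Values were whole multiples of 1 read for 100% of entries within 0.01 reads, which gave 12361026 to 47193068 reads on genes per library. The labels do not say that plates came from separate cultures, so p-values measure the spread between these libraries, which may be technical. Symbols came from the WBcel235 annotation for 46180 genes, and 409 had no match.

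Tests used limma 3.58.1 (R 4.3.3; empirical Bayes with a trend) on log2(FPKM + 1) of genes with a mean of at least 1 FPKM in the libraries compared, two-sided, with Benjamini-Hochberg adjustment over all genes tested. A call needs an adjusted p under 0.05, and the second limit is a log2 change over 1. The members and all lists were chosen with earlier results of these data known. Named genes are the 10 members, up to 6 other pathway genes per TM comparison with the largest fold changes among those called, and 5 genes like *algn-7*. *hsp-4* and the subunit ratios were added after their values were seen. Alternatives were pseudocounts of 0.1 and 5, other filters (none, or a mean of 5 FPKM), median-ratio or TPM scaling, protein-coding genes alone, voom on recovered reads, a replicate block, a single model for all 16 libraries, and leaving out each library. Leaving out the libraries farthest from their groups was added after the data were seen. The test was checked on simulated data. A planned search of promoter motifs was not run, as promoter sequences were not used here. Python 3.11.15 with pandas 2.3.3 and matplotlib 3.10.9 drew the plots.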

Additional observations from a re-analysis of the deposited data

Results flagged for a closer look

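Within groups of 4, 13 of 84 gene and group combinations had 1 library apart from the other 3 by Dixon's criterion, where chance gives about 1 in 20. L4 TM replicate 4 and L4 CNT replicate 2 held 6 of them each. L4 TM replicate 4 was high for *algn-1* (38.7 FPKM), *algn-2* (79.2), *algn-11* (85.3), *dad-1* (478.4) and *mans-2* (36.3), and low for *dpm-3* (37.1, against 79.1 to 80.3 in the other L4 TM libraries). L4 CNT replicate 2 was high for *algn-2* (83.8 FPKM), *ribo-1* (210.7), *dad-1* (404.8) and *aagr-1* (63.9985), and low for *stt-3* (74.4) and *aagr-3* (70.3). EMBRYO TM replicate 1 was high for *aagr-1* (54.6 FPKM, against 42.4 to 44.2 in the other EMBRYO TM libraries).

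By the limma interaction (EMBRYO minus L4, log2 scale) the TM effect differed between the stages for 5 named genes, none of them a member. They were named by rule for large TM fold changes in these same data, or as *hsp-4* after its values were seen. Their count therefore says nothing about the pathway as a whole. Over the whole lists the difference was positive for 6 and negative for 1 of 43 other pathway genes tested. It was positive for 6 and negative for 2 of 14 ER stress genes. Of all genes tested, 14.8% had a positive and 14.4% a negative difference. The difference was 1.41 for *aagr-2* (adjusted p = 6.81e-08), 1.40 for *aagr-1* (adjusted p = 1.3e-07), 0.77 for *rft-1* (adjusted p = 0.0128), 0.37 for *hsp-4* (adjusted p = 0.0252) and 0.34 for *aagr-4* (adjusted p = 0.0212). *aagr-1* was higher in all 4 EMBRYO TM libraries than in any EMBRYO CNT library, and lower in all 4 L4 TM libraries than in any L4 CNT library. The difference of *aagr-4* did not pass as TPM (0.29, adjusted p = 0.101) or by voom (0.31, adjusted p = 0.0864). That of *hsp-4* did not pass without EMBRYO CNT replicate 2 or 3 or L4 CNT replicate 4 (0.32 to 0.35).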

How the results depend on the processing

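Of the tests of the 10 members under all alternatives, 778 kept their side of the limit, 18 lost a call and 14 gained one, and none turned its direction while called. Leaving out 1 library at a time, members higher in EMBRYO TM numbered 3 to 6, higher in L4 TM 4 to 7, lower in EMBRYO CNT than in L4 CNT 9 throughout, and higher there 0 to 1 (*stt-3*, without EMBRYO CNT replicate 3). Without the 2 libraries farthest from their groups, 8 were higher in L4 TM, and as TPM 1 (*stt-3*) was higher in EMBRYO CNT. *aagr-3* turned to 0.035 in EMBRYO CNT over L4 CNT as TPM, against -0.16 as deposited, and did not pass there (adjusted p = 0.622 by limma); the cause was not tested. Same-numbered libraries showed no steady shared deviation from their groups (correlations from -0.33 to 0.23). Deviations within groups of 4 depend on single outlying libraries, so these values do not settle whether the numbers pair libraries. With the replicate number as a block, 3 members (without *algn-5*) were higher in EMBRYO TM and 4 (without *algn-1*) in L4 TM, and all genes higher in L4 TM numbered 1324, against 2428 without the block. Counts of all genes past both limits moved most, from 427 higher and 440 lower with a pseudocount of 5 to 998 and 1715 by voom in EMBRYO TM, and from 27 and 180 to 103 and 732 in L4 TM, against 756 and 1136, and 70 and 383, as reported. A pseudocount of 1 understates changes of low genes, and 4 libraries per group limit what small changes can be detected.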

Other observations

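ER stress genes were read beside the pathway. *crt-1* is in this list and also under trimming and the lectin cycle, and did not pass in either TM comparison. By limma's adjusted p 8 of 14 listed genes rose and 3 fell in EMBRYO TM, while 6 rose and 2 fell in L4 TM. *hsp-4*, which encodes the ER chaperone BiP and was named after its values were seen, had 147.8, 144.4, 151.3 and 132.8 FPKM in EMBRYO TM, against 82.3, 69.7, 66.7 and 81.8 FPKM in EMBRYO CNT. It had 204.3, 191.0, 202.5 and 170.6 FPKM in L4 TM, against 128.5, 125.7, 129.2 and 135.5 FPKM in L4 CNT. Both sets were free of overlap, with log2 fold changes of 0.93 (limma adjusted p = 5.34e-05) and 0.56 (limma adjusted p = 0.000539). In EMBRYO TM this was a larger fold change than that of any N-glycosylation member, and in L4 TM only *ostb-1* exceeded it.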
